A study of Mus musculus with 19 samples.

Results

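The 9 genes described here encode fibroblast growth factors (FGF) and their receptors. They were chosen by name: 5 ligand genes (Fgf4, Fgf5, Fgf8, Fgf15 and Fgf17) and 4 receptor genes (Fgfr1, Fgfr2, Fgfr3 and Fgfr4), out of 54119 mouse genes with an expression value. RNA was sequenced in 19 libraries of 2 culture states. Mouse embryonic stem cells (mESC) grew in N2B27 medium with LIF and inhibitors of the kinases GSK3 and MEK1/2. Epiblast-like cells (EpiLC) were derived from them over 5 days in FGF5 and Activin A, LIF being left out; whether the kinase inhibitors were also withdrawn is not said. Each state held wild-type XX cells of the LF2 line (3 libraries), wild-type XY cells of the E14 line (3 libraries) and Tet3-/- XX cells of the LF2 line (4 numbered mutants as mESC, of which mutants 1, 3 and 4 were also sequenced as EpiLC). The series was designed to ask whether TET3, an enzyme that oxidises methylated cytosine in DNA, is needed for the change from mESC to EpiLC.

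FGF ligands are secreted proteins that bind receptor tyrosine kinases on the cell surface together with heparan sulfate chains. The receptor docks the adaptor FRS2, which leads through GRB2, SOS and RAS to the kinases RAF, MEK and ERK. FGF4 is the ligand that mouse embryonic stem cells make for themselves, and ERK activity downstream of it promotes exit from the naive state. Fgf5 is a marker gene of the epiblast after implantation. Fgf8 and Fgf17 encode ligands of one subfamily, and Fgf8 is needed for gastrulation. Fgf15 encodes a hormone-like ligand that acts with the co-receptor beta-Klotho. FGFR1 is the main receptor of the epiblast, and FGFR2 is known for its part in the primitive endoderm and the trophoblast.

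As a start, the sequences shown are the 250 bases before the RefSeq start of Fgf4 and of Fgf5, the ligand genes with the highest levels in mESC and in XY EpiLC, since the series concerns an enzyme that acts on methylated CG dinucleotides. RefSeq (GRCm38.p6) held such a window for 5 of the 9 genes. The CG dinucleotides are in capitals.
Fgf4 (chr7:144861136-144861385, plus strand): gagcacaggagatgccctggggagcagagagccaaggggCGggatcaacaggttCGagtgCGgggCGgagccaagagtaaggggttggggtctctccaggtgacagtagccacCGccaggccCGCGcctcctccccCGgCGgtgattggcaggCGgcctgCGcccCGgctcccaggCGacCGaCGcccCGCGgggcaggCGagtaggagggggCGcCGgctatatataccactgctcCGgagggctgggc
Fgf5 (chr5:98253934-98254183, plus strand): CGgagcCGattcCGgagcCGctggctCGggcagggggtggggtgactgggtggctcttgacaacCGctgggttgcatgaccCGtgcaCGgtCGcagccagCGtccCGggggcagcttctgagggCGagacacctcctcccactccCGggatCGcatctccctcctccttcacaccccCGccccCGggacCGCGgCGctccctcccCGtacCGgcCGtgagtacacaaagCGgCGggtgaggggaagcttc
The Fgf4 window held 21 CG and the Fgf5 window 24 CG. Over the 32851 windows of the same length in the table the median was 6 CG, 92.1% held at least 1, 16.3% held at least as many as Fgf4 and 12.0% at least as many as Fgf5. Neither ATGCAAAT, the octamer bound by OCT4 (in 1.60% of all windows on either strand), nor TATAAA (in 12.4%) was in the 2 windows. Only these exact strings were sought, and the Fgf4 window holds the run tatatata near its end.

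The values are TPM, a relative abundance of transcripts corrected for their length, summed over the transcripts of each gene. TPM keeps no record of sequencing depth, so the depth is unknown and errors are the spread among libraries of a group. The non-coding RNA Rn7s1 alone took from 23.5% to 43.7% of TPM, and it was lower in XY EpiLC (23.5% to 27.4%) than in XX EpiLC (38.9% to 39.5%), which raises the TPM of other genes there. Changes are therefore also given after median-of-ratios scaling, which sets the median gene of each library level. Tet3 itself had 0.536, 0.688 and 1.06 TPM in XX mESC and 0.577, 0.618, 0.532 and 0.916 TPM in Tet3-/- mESC, so its summed level did not tell the genotypes apart there. In EpiLC it had 1.21, 1.85 and 1.90 TPM in XX and 0.997, 1.42 and 0.693 TPM in mutants 1, 3 and 4. The deleted part of the gene is not given in the sources used here. Summed over 5 naive pluripotency genes, mESC held 206 to 541 TPM and EpiLC 8.77 to 45.2 TPM. The formative gene Pou3f1 was at most 0.0321 TPM in mESC and at least 2.63 TPM in EpiLC, but Otx2, another formative gene, was lower in XX EpiLC (11.0 ± 0.578 TPM, SD, n = 3) than in XX mESC (18.9 ± 3.05 TPM).

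The EpiLC library of Tet3-/- mutant 3 stood apart from the other mutant libraries in several of the genes below. Its summed level of 5 mesendoderm genes was 135 TPM, against 3.13 to 3.28 TPM in mutants 1 and 4, 2.93 to 3.28 TPM in XX EpiLC and 25.8 to 37.0 TPM in XY EpiLC. All 5 were higher in mutant 3 than in mutants 1 and 4, with T at 94.3 TPM (1.03 and 0.843 in the others), Eomes at 17.4, Mixl1 at 12.9, Gsc at 5.41 and Foxa2 at 5.27 TPM. Over the 14972 genes tested its log2 values correlated with the mean of the other EpiLC mutants at r = 0.950, and those of mutants 1 and 4 at 0.977 and 0.980. Its Y-linked gene Eif2s3y was listed at 0, as in the other EpiLC mutants. The unscaled sums of the other marker lists were also higher in mutant 3 than in mutants 1 and 4: 107 against 39.1 and 37.9 TPM for the formative list, 28.4 against 9.68 and 11.6 TPM for the naive list, and 10.7 against 4.90 and 2.93 TPM for primitive endoderm. The trophoblast sum was 363 against 142 and 100.5 TPM, nearly all of it Krt8. Neural and fibroblast sums were at most 2.81 TPM in all of them. Rn7s1 took 33.4% of TPM in mutant 3 against 39.4% and 43.7% in mutants 1 and 4, which raises other genes in mutant 3. Scaling took Fgf4 from 5.58 to 4.16 TPM in mutant 3. In mutants 1 and 4 it took Fgf4 from 2.95 to 3.89 and from 3.81 to 5.79 TPM. How much of the smaller differences in these sums comes from this was not tested. Examples of single markers higher in mutant 3 were Pou3f1 (18.1 against 3.05 and 3.41 TPM), Sox17 (3.37 against 0 and 0.0935 TPM) and Gata6 (2.09 against 0.0865 and 0.0804 TPM). Lef1 (4.16 against 0.306 and 0.242 TPM) and Cdx2 (1.33 against 0.0296 and 0.0294 TPM) were others. Dab2, Elf5, Gata3, Col1a2, Col3a1 and Postn were not above both other mutants. The part of the cells or genes behind these markers in the results was not tested. Results that rest on this library are given with and without it.

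The ligand RNA changed its make-up between mESC and EpiLC. In mESC nearly all of it was Fgf4. In EpiLC Fgf4 fell in each genotype and Fgf5 and Fgf17 rose in each, while Fgf8 and Fgf15 were above 1 TPM only in the XY EpiLC libraries and in the EpiLC of mutant 3.

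Fgf4 lies on chromosome 7 (GRCm38, chr7:144847367-144865243). In mESC it had 29.8, 55.7 and 40.4 TPM in XX, 44.3, 26.8 and 58.3 TPM in XY, and 37.7, 42.8, 49.9 and 40.0 TPM in Tet3-/- mutants 1 to 4. In EpiLC it had 9.60, 10.9 and 11.2 TPM in XX, 6.26, 7.01 and 6.55 TPM in XY, and 2.95, 5.58 and 3.81 TPM in mutants 1, 3 and 4. Every mESC library was above every EpiLC library, the 3 genotypes overlapped in mESC, and in EpiLC they did not overlap, with XX highest and Tet3-/- lowest. The order of the lower groups depended on the scaling: after median-of-ratios scaling XX EpiLC was still highest (11.0 to 11.2 TPM), but XY (3.82 to 4.54 TPM) and Tet3-/- EpiLC (3.89 to 5.79 TPM) overlapped. The change from mESC to EpiLC on the log2(TPM + 1) scale was -1.85 ± 0.27 (SE) in XX (limma, adjusted p = 3.18e-05), -2.47 ± 0.27 in XY (adjusted p = 6.11e-07) and -3.12 ± 0.26 in Tet3-/- (adjusted p = 1.78e-08). After scaling these became -2.07, -3.04 and -2.98. One coding transcript of 3030 bases held 99.7% or more of the gene's TPM in the mean of each group. Its start is the RefSeq start that the printed window ends at, and the span given above begins further upstream, with the other annotated transcript.

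Fgf5 (chr5:98254184-98277030) was at most 0.216 TPM in any mESC library. Its EpiLC levels were 2.21, 2.38 and 2.78 TPM in XX, 50.8, 58.0 and 60.0 TPM in XY, and 3.60, 43.7 and 3.58 TPM in Tet3-/- mutants 1, 3 and 4. XY EpiLC and mutant 3 formed the high libraries. Mutants 1 and 4 lay above the XX range, and further above it after scaling (4.75 and 5.45 TPM against 2.46 to 2.73 TPM). The change was 1.77 ± 0.53 in XX (adjusted p = 0.0156), 5.67 ± 0.53 in XY (adjusted p = 7.80e-08) and 3.28 ± 0.50 in Tet3-/- (adjusted p = 3.51e-05). Without mutant 3 the Tet3-/- change was 2.19. The added FGF5 was protein, and these values count RNA made by the cells.

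Fgf8 (chr19:45736798-45742915) was at most 0.0502 TPM in mESC and was listed at 0 in several of those libraries. XX EpiLC had 0.152, 0.249 and 0.309 TPM, XY EpiLC had 18.0, 20.8 and 20.1 TPM, and there were 0.442, 27.4 and 0.256 TPM in mutants 1, 3 and 4. The high libraries were the same as for Fgf5, and mutant 3 was the highest of all. Fgf8 rose by 4.33 ± 0.70 in XY (adjusted p = 5.17e-05), and its change in XX was 0.29 ± 0.70 (adjusted p = 0.806). These SEs rest on the spread of all 6 groups, mutant 3 included. Every XX EpiLC library was above every XX mESC library, and Fgf8 passed in XX when only the groups compared were fitted. In Tet3-/- the change was 1.89 ± 0.65 (adjusted p = 0.0312), and 0.42 ± 0.11 without mutant 3 (adjusted p = 0.0062). In XY EpiLC the gene's TPM was spread over 6 annotated coding transcripts, with means from 13.7% to 20.4% each, so no single form led.

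Fgf15 (chr7:144896531-144900953, downstream of Fgf4 on the same strand) was low throughout. It had 0.0845, 0.150 and 0.294 TPM in XX mESC, 0.0435, 0.0156 and 0.0249 TPM in XY mESC, and at most 0.165 TPM in Tet3-/- mESC. The EpiLC values were 0.343, 0.389 and 0.324 TPM in XX, 2.33, 2.35 and 2.11 TPM in XY, and 0.0604, 1.27 and 0.0900 TPM in mutants 1, 3 and 4. It rose in XY (1.66 ± 0.20, adjusted p = 2.09e-06); the change was 0.20 ± 0.20 in XX and 0.35 ± 0.19 in Tet3-/-, neither past the threshold, and -0.013 in Tet3-/- without mutant 3. Klb, which encodes its co-receptor beta-Klotho, was at most 0.0729 TPM in EpiLC.

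Fgf17 (chr14:70636203-70642268) was at most 0.106 TPM in mESC. As EpiLC it had 1.54, 1.44 and 1.60 TPM in XX, 1.58, 1.20 and 1.47 TPM in XY, and 1.38, 2.65 and 0.909 TPM in mutants 1, 3 and 4, and these ranges overlapped. After scaling every XY EpiLC library (0.716 to 1.14 TPM) was below every XX (1.49 to 1.78 TPM) and mutant library. It rose by 1.32 ± 0.17 in XX (adjusted p = 7.69e-06), 1.15 ± 0.17 in XY (adjusted p = 2.17e-05) and 1.32 ± 0.16 in Tet3-/- (adjusted p = 2.72e-06). In XX EpiLC its mean level per transcript length, 1.53 TPM, was above that of Fgf8 (0.236 TPM), and in XY EpiLC Fgf8 (19.7 TPM) was above Fgf17 (1.42 TPM).

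**Figure D1:**
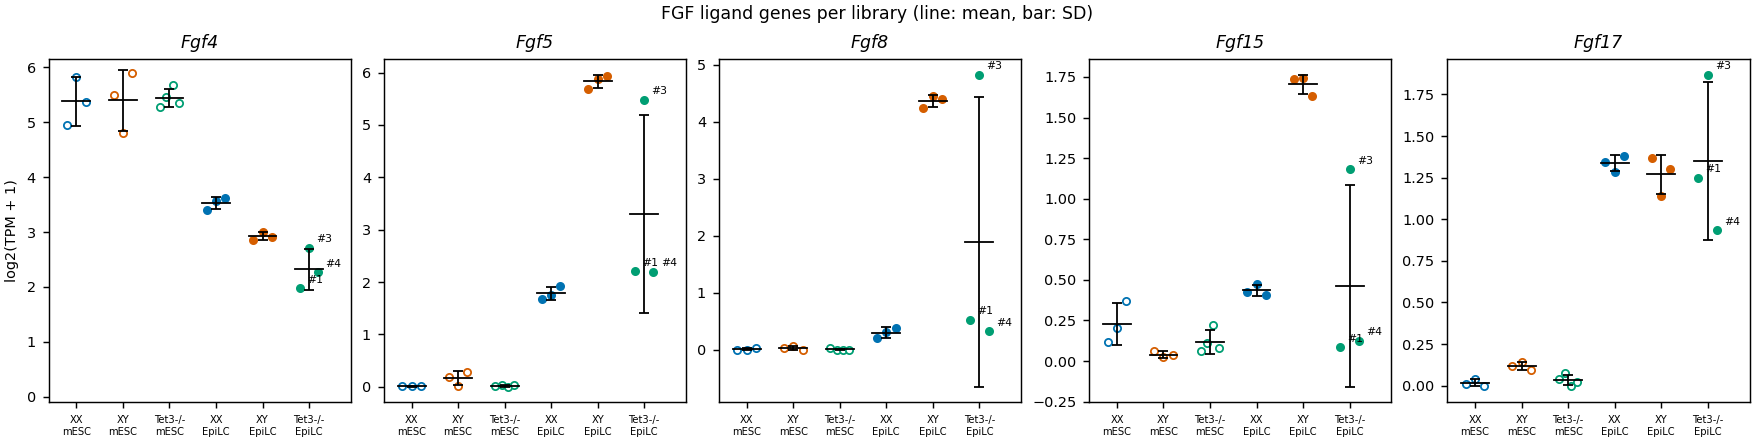
Levels of the 5 FGF ligand genes in each library, as log2(TPM + 1), with one panel per gene and its own axis. Points are libraries (open mESC, filled EpiLC), lines are group means and bars SDs; the EpiLC mutants are numbered, and mutant 3 lies near XY EpiLC for Fgf5, Fgf8 and Fgf15.

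A share of the summed ligand TPM within a library does not depend on how libraries are scaled. This measure was chosen after the values had been seen and carries no test. Fgf4 made up at least 99.2% of the 5 ligands' TPM in every mESC library. In EpiLC it made up 69.1% to 71.0% in XX, 7.26% to 7.92% in XY, and 35.0%, 6.92% and 44.0% in mutants 1, 3 and 4. Fgf5 made up 15.5% to 17.1% in XX EpiLC, 64.3% to 66.5% in XY EpiLC and 41.4% to 54.2% in the 3 mutant EpiLC libraries. Fgf8 made up 22.8% ± 0.473 (SD, n = 3) in XY EpiLC and 1.54% ± 0.406 in XX EpiLC. The make-up of mutants 1 and 4 therefore lay between XX and XY EpiLC for Fgf4 and Fgf5, and that of mutant 3 had less Fgf4 than any XY library. The summed TPM of the 5 ligands was 42.2 ± 13.1 (SD, n = 3) in XX mESC, 15.1 ± 1.21 in XX EpiLC and 86.2 ± 6.25 in XY EpiLC.

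The receptor RNA rose in EpiLC. Fgfr1, Fgfr2 and Fgfr3 each rose in each genotype, and Fgfr4 stayed under 1 TPM in every library. Fgfr1 had the highest level of the 4 in every library but EpiLC mutant 1.

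Fgfr1 (chr8:25513654-25575718) had 4.35, 7.61 and 5.28 TPM in XX mESC, 5.66, 3.93 and 8.99 TPM in XY mESC, and 6.21, 6.33, 9.70 and 10.4 TPM in Tet3-/- mESC, ranges that overlapped. After the transition it had 15.7, 18.3 and 20.4 TPM in XX, 47.3, 68.5 and 58.2 TPM in XY, and 17.1, 40.5 and 12.2 TPM in mutants 1, 3 and 4. XY EpiLC was highest, mutant 3 came next, and mutant 1 lay within the XX range and mutant 4 below it. The rise was 1.53 ± 0.35 in XX (adjusted p = 0.00254), 3.08 ± 0.35 in XY (adjusted p = 9.96e-07) and 1.26 ± 0.33 in Tet3-/- (adjusted p = 0.00574). Without mutant 3 the Tet3-/- rise was 0.78 (adjusted p = 0.036). The places of mutants 1 and 4 depended on the scaling. After scaling mutant 1 (22.5 TPM) was above XX EpiLC (18.1 to 20.1 TPM) and mutant 4 (18.6 TPM) lay within its range. The scaled rises, mutant 3 included, were 1.35 in XX, 2.43 in XY and 1.42 in Tet3-/-.

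Part of the Fgfr1 TPM was assigned to short or non-coding transcripts. The 6 annotated transcripts with a complete coding sequence held 57.3% ± 7.21 (SD, n = 3) of the gene's TPM in XX mESC, 39.1% ± 2.51 in XX EpiLC and 56.0% ± 7.49 in XY EpiLC. A transcript of 385 bases with an incomplete coding sequence held 20.9% ± 6.09 in XX EpiLC. Summed over the complete coding transcripts alone, Fgfr1 had 2.17, 4.89 and 3.05 TPM in XX mESC and 6.39, 7.38 and 7.40 TPM in XX EpiLC, and 28.4, 32.4 and 35.3 TPM in XY EpiLC. XX EpiLC was still above XX mESC and below XY EpiLC, without overlap. This sum was added after the values had been seen.

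Fgfr2 (chr7:130162451-133123350) differed between the lines in mESC. It had 1.77, 2.46 and 2.22 TPM in XX mESC, 0.0972, 0.165 and 0.167 TPM in XY mESC, and 2.36, 3.35, 3.44 and 3.07 TPM in Tet3-/- mESC. The EpiLC levels were 8.37, 10.8 and 9.97 TPM in XX, 7.48, 10.5 and 10.4 TPM in XY, and 17.3, 11.7 and 11.2 TPM in mutants 1, 3 and 4. The XY mESC libraries were far below all others, and in EpiLC the XX and XY ranges overlapped while every mutant was above them. After scaling XY EpiLC (5.43 to 6.24 TPM) was below XX EpiLC (9.67 to 11.1 TPM), and the mutants (8.74 to 22.8 TPM) overlapped XX. The rise was 1.76 ± 0.20 in XX (adjusted p = 1.21e-06), 3.18 ± 0.20 in XY (adjusted p = 4.24e-10) and 1.81 ± 0.18 in Tet3-/- (adjusted p = 2.73e-07). Summed over the 4 complete coding transcripts alone, unscaled, Fgfr2 in the EpiLC mutants (6.03 to 9.65 TPM) overlapped XY EpiLC (4.34 to 6.63 TPM). That sum was still above XX EpiLC (3.78 to 4.87 TPM). The summed level of 6 primitive endoderm markers, cells in which Fgfr2 is known to be high, was 1.54 to 8.84 TPM in XX mESC, 0.928 to 4.66 TPM in Tet3-/- mESC and 0.542 to 0.973 TPM in XY mESC. Dab2 and Gata6 made up most of it in XX mESC, with means of 2.66 and 1.96 TPM against 0.151 and 0.0605 TPM in XY, while Sox17 was 0.0784 in XX and 0.149 TPM in XY. The sum of 5 trophoblast markers was 19.4 to 37.0 TPM in XX mESC, 22.6 to 27.0 TPM in Tet3-/- mESC and 17.2 to 27.8 TPM in XY mESC. Of these markers, Tfap2c (means of 12.9, 14.2 and 2.43 TPM in XX, Tet3-/- and XY) and Gata3 (1.83, 1.45 and 0.0381 TPM) were higher in the LF2 cells, as Fgfr2 was. Cdx2 (0.239, 0.342 and 4.21 TPM) was higher in XY, Krt8 was 12.9, 8.46 and 15.5 TPM, and Elf5 was at most 0.317 TPM in any library. The part of other cell types in the Fgfr2 level was not tested, and in bulk RNA a share of cells and the RNA per cell cannot be told apart.

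Fgfr3 (chr5:33721674-33737068) was at most 0.219 TPM in mESC. In EpiLC Fgfr3 had 1.46, 1.39 and 1.60 TPM in XX, 0.967, 1.23 and 1.63 TPM in XY, and 0.734, 0.987 and 0.590 TPM in mutants 1, 3 and 4. The XX and XY ranges overlapped and every mutant lay below XX. After scaling the mutants were still below XX (1.43 to 1.68 TPM), and so was XY EpiLC (0.702 to 0.953 TPM). It rose by 1.17 ± 0.14 in XX (adjusted p = 2.05e-06), 1.14 ± 0.14 in XY (adjusted p = 1.63e-06) and 0.72 ± 0.13 in Tet3-/- (adjusted p = 0.000175).

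Fgfr4 (chr13:55152640-55168759) did not reach 1 TPM in any library and was left out of the test by the filter on low values. It had 0.411, 0.209 and 0.559 TPM in XX mESC, 0.239, 0.322 and 0.455 TPM in XY mESC, and 0.176 to 0.444 TPM in Tet3-/- mESC. EpiLC had 0.130, 0.166 and 0.195 TPM in XX, 0.656, 0.493 and 0.386 TPM in XY, and 0.160, 0.0969 and 0.0723 TPM in mutants 1, 3 and 4. XY EpiLC was above both LF2 groups of EpiLC, and the other groups overlapped in part.

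**Figure D2:**
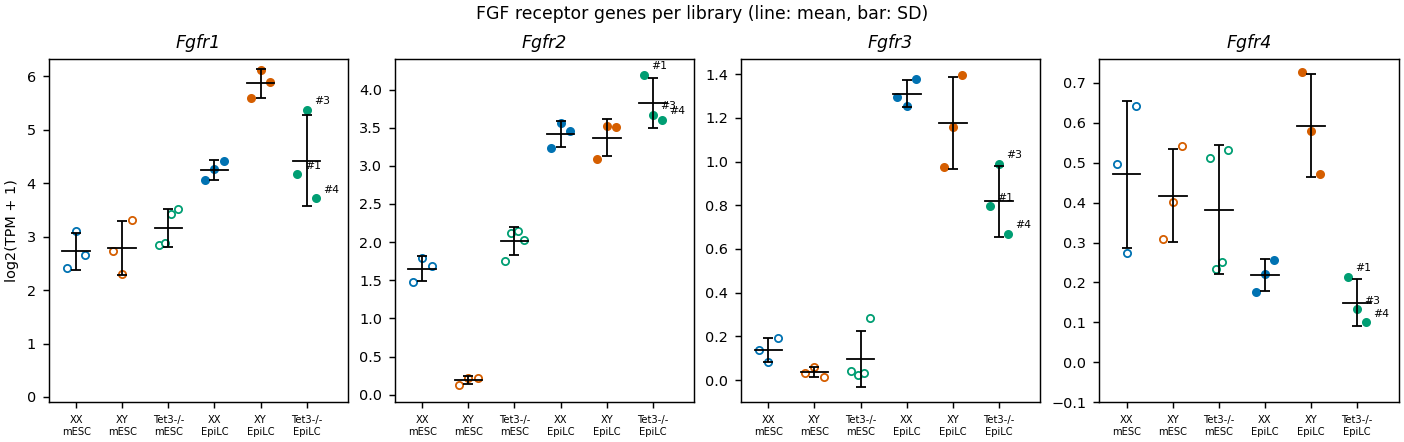
Levels of the 4 FGF receptor genes in each library, as log2(TPM + 1), with one panel per gene and its own axis. Points are libraries (open mESC, filled EpiLC), lines are group means and bars SDs; Fgfr2 is near 0 in XY mESC only, and Fgfr4 stays below 1 TPM throughout.

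The balance of Fgfr1 and Fgfr2 within a library, again chosen after the values had been seen, separated the lines in both states. The ratio of their TPM was 2.38 to 3.09 in XX mESC, 1.89 to 3.41 in Tet3-/- mESC and 23.8 to 58.3 in XY mESC. In EpiLC it was 1.70 to 2.05 in XX and 5.61 to 6.55 in XY, and 0.984, 3.46 and 1.096 in mutants 1, 3 and 4. Mutants 1 and 4 were below the XX range and mutant 3 lay between XX and XY. The summed TPM of the 4 receptors was 8.39 ± 1.86 (SD, n = 3) in XX mESC and 29.5 ± 3.44 in XX EpiLC, and 6.70 ± 2.65 in XY mESC and 69.2 ± 12.2 in XY EpiLC.

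**Figure D3:**
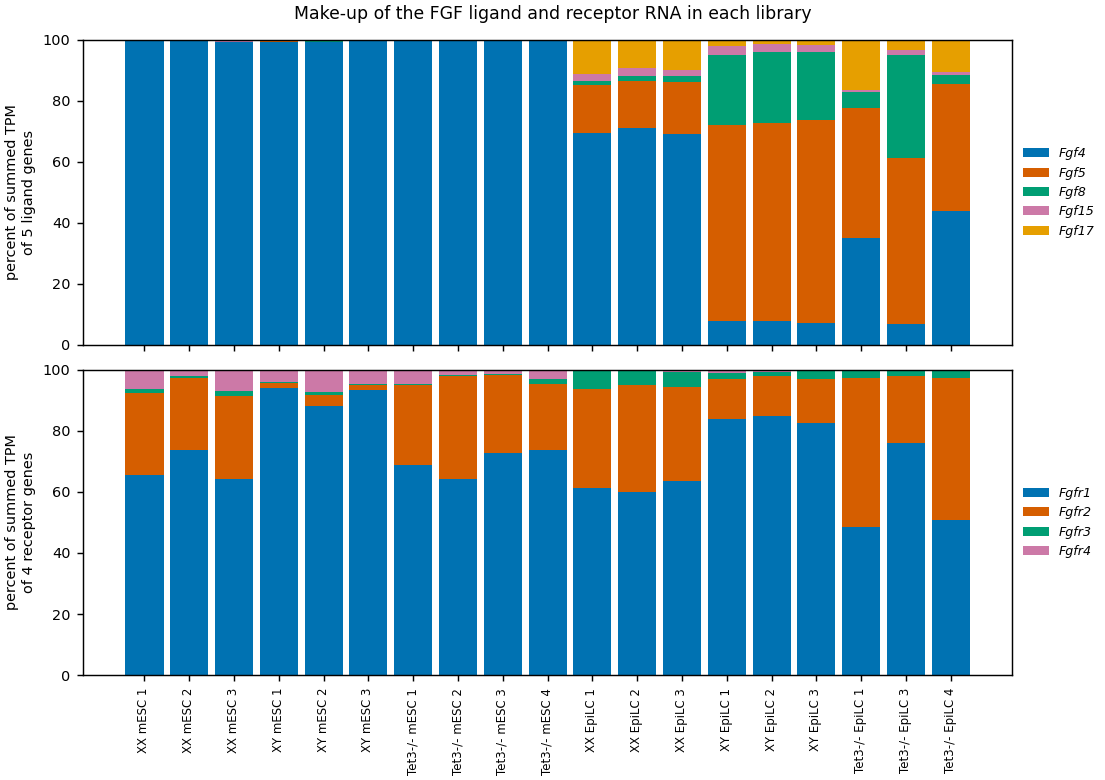
Make-up of the FGF RNA in each library, as percent of the summed TPM of the 5 ligand genes (top) and of the 4 receptor genes (bottom), one bar per library. Fgf4 fills at least 99.2% of the ligand bar in mESC, 69.1% to 71.0% in XX EpiLC and 7.26% to 7.92% in XY EpiLC.

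The form of Fgfr2 differed as well as its level. Alternative exons, IIIb and IIIc, give the third immunoglobulin domain of the receptor, and a transcript carries one or the other, which decides which FGF ligands it binds. The IIIb form is typical of epithelia and the IIIc form of mesenchyme. Among transcripts carrying one of these exons, IIIb made up 0%, 1.70% and 1.62% of TPM in XX mESC and 4.74%, 16.0%, 4.14% and 20.0% in Tet3-/- mESC. In EpiLC it made up 74.5%, 59.2% and 67.4% in XX, 25.1%, 14.5% and 25.6% in XY, and 43.6%, 31.3% and 46.3% in mutants 1, 3 and 4. The 3 EpiLC genotypes did not overlap, with XX highest and XY lowest. The TPM of IIIc transcripts was 0.995 ± 0.231 (SD, n = 3) in XX mESC and 1.49 ± 0.385 in XX EpiLC, and that of IIIb transcripts 0.0127 ± 0.0110 and 3.01 ± 0.462. Transcripts with neither exon had means of 1.14 TPM in XX mESC and 5.21 TPM in XX EpiLC, and which form those reads came from cannot be told from these values. In XY EpiLC it was 0.938 ± 0.278 for IIIb and 3.42 ± 0.647 for IIIc. XY mESC had under 0.1 TPM of either form in each library, too little for a share. These shares carry no test: they rest on the estimated division of reads among transcripts, and only 38.6% to 62.2% of the gene's TPM outside XY mESC was in transcripts with either exon.

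**Figure D4:**
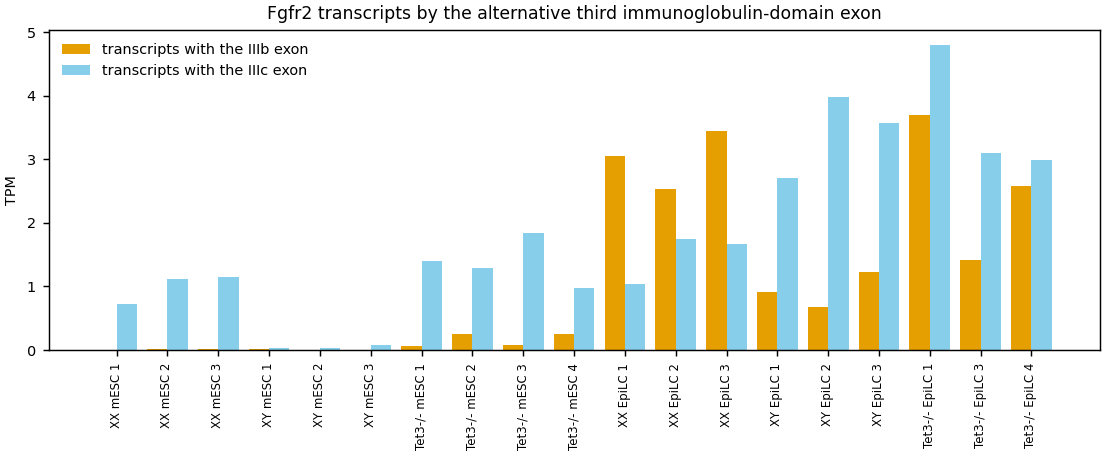
TPM of Fgfr2 transcripts that carry the IIIb exon and of those that carry the IIIc exon, one pair of bars per library. IIIb exceeds IIIc in the 3 XX EpiLC libraries, and IIIc exceeds IIIb in every other library.

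Of the 8 genes tested, 6 passed the threshold (adjusted p under 0.05) in the XX transition, 8 in the XY transition and 7 in the Tet3-/- transition. Of all 14972 genes tested, 31.3% passed in XX (19.2% higher and 12.2% lower), 50.5% in XY (41.1% and 9.36%) and 35.1% in Tet3-/- (13.6% and 21.5%). The median change of all genes was 0.14, 0.54 and -0.13, and after scaling it was within 0.02 of 0; the same FGF genes passed in each transition after scaling, where 50.4%, 51.4% and 52.4% of all genes did. Fgf4 was the only one of the 8 that fell. In XY every rise was smaller after scaling: Fgf5 5.04, Fgf8 3.70, Fgf15 1.24, Fgf17 0.80, Fgfr1 2.43, Fgfr2 2.59 and Fgfr3 0.80. Fgf5, Fgf8, Fgf15, Fgf17 and Fgfr3 reached 1 TPM only in EpiLC libraries, so the filter admitted them through the state in which they were high. Fgf4, Fgfr1 and Fgfr2 reached it in both states. The 3 transitions used separate libraries.

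**Figure D5:**
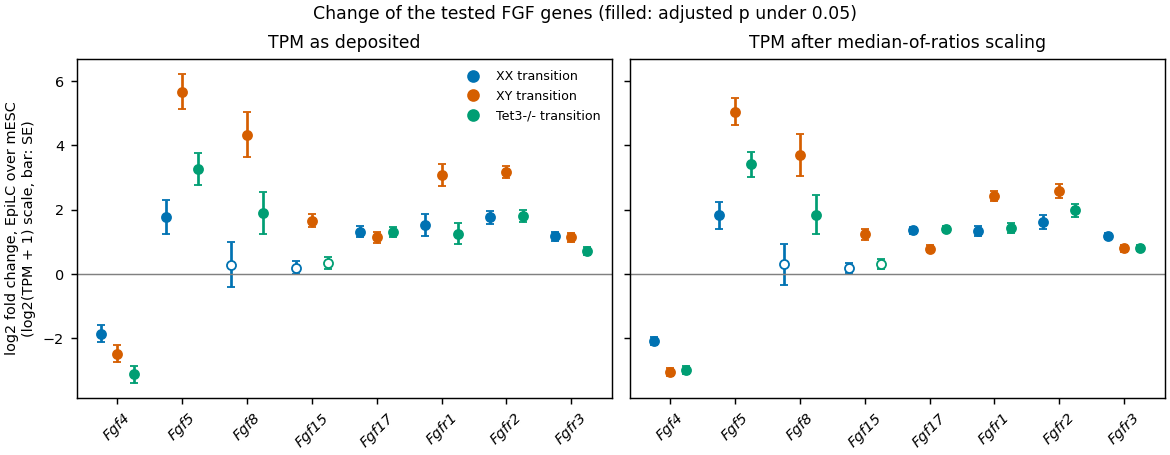
Change of the 8 tested FGF genes from mESC to EpiLC in XX, XY and Tet3-/- cells, as log2 fold change on the log2(TPM + 1) scale with its SE, from TPM as deposited (left) and after scaling (right). Filled points have a limma adjusted p under 0.05; Fgf4 falls in each transition, and Fgf8 and Fgf15 are open in XX.

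The transitions of the XX and XY lines were compared directly by the difference of their changes. Of the 8 genes, 5 differed, where 16% of all genes did, and all 5 rose less in XX, a direction taken by 12.4% of all genes. Fgf8 and Fgf15 passed the filter only through XY EpiLC and mutant 3, which set their direction here and between XX and XY EpiLC, so only Fgf5, Fgfr1 and Fgfr2 are free of that choice. The difference was -4.04 ± 0.99 for Fgf8 (adjusted p = 0.00868), -3.90 ± 0.75 for Fgf5 (adjusted p = 0.00147) and -1.46 ± 0.29 for Fgf15 (adjusted p = 0.00173). For the receptors it was -1.56 ± 0.50 for Fgfr1 (adjusted p = 0.0413) and -1.41 ± 0.28 for Fgfr2 (adjusted p = 0.00173). The median difference over all genes was -0.40. After scaling, where 23.7% of all genes differed, the 5 kept their direction and their calls, and Fgf4 (0.97) and Fgf17 (0.57) differed too, with Fgf4 falling less and Fgf17 rising more in XX. The Fgfr1 difference is near the threshold: its adjusted p ranged from 0.0578 to 0.111 when single libraries were left out, except without XX mESC 1, XY mESC 3 or XY EpiLC 1.

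In mESC, Fgfr2 was the only one of the 8 that differed between the lines, higher in XX by 1.46 ± 0.20 (adjusted p = 4.76e-05), where 14.2% of all genes differed. After scaling it was still the only one (1.66), where 31.3% of all genes differed. Fgf4 differed by -0.015 ± 0.27 and Fgfr1 by -0.061 ± 0.35, and after scaling by 0.26 and 0.18, none of them past the threshold. In EpiLC 4 of the 8 differed, where 47.2% of all genes did. All 4 were lower in XX, as were 42% of all genes: Fgf8 by -4.06 ± 0.70 (adjusted p = 0.000269), Fgf5 by -4.05 ± 0.53 (adjusted p = 1.66e-05), Fgfr1 by -1.62 ± 0.35 (adjusted p = 0.00197) and Fgf15 by -1.27 ± 0.20 (adjusted p = 0.000133). Here too Fgf8 and Fgf15 were tested because they were high in XY EpiLC. The median over all genes was -0.59. After scaling, where 33.8% of all genes differed, these 4 were still lower in XX, and Fgf4 (1.23), Fgfr2 (0.70), Fgfr3 (0.51) and Fgf17 (0.46) were higher in XX. The XX and XY cells are different lines, so sex and line cannot be told apart. The mesendoderm sum given above was higher in XY EpiLC too, and its part in the Fgf8 and Fgf5 values was not tested.

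Tet3-/- cells were next set against XX cells of the same line. In mESC none of the 8 genes passed the limma threshold, where 0.601% of all genes passed (3.19% after scaling, again with none of the 8). The largest differences were 0.44 ± 0.33 for Fgfr1 and 0.36 ± 0.18 for Fgfr2. In EpiLC 1 of the 8 passed, where 1.08% of all genes did: Fgf4 was lower in Tet3-/- by -1.21 ± 0.27 (adjusted p = 0.0365), in 3 of 3 mutants. It was -1.13 after scaling (adjusted p = 7.54e-05), where 3 of the 8 and 5.46% of all genes passed, and -1.41 without mutant 3 (adjusted p = 0.014). The call on unscaled TPM was lost without any one of the XX libraries or without mutant 1 or 4 (adjusted p from 0.0844 to 0.194, differences from -1.27 to -1.04). Fgf5 (1.51 ± 0.53, adjusted p = 0.259) and Fgf8 (1.59 ± 0.70, adjusted p = 0.452) did not pass, and without mutant 3 they were 0.41 and 0.12. After scaling Fgf5 passed (1.59, adjusted p = 0.0363), and with scaling and without mutant 3 together it was 0.77 (adjusted p = 8.7e-05). Fgfr3 was -0.49 ± 0.14 (adjusted p = 0.108), and it passed after scaling (-0.46, adjusted p = 0.0101) and without mutant 3 (-0.58, adjusted p = 0.0341). Fgfr2 was 0.41 ± 0.20 (adjusted p = 0.524), and under both of these changes together it was 0.89 (adjusted p = 0.00109).

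The difference between the Tet3-/- and XX transitions itself passed for none of the 8 genes, where 0.174% of all genes passed. It was -1.27 ± 0.37 for Fgf4 (adjusted p = 0.291) and -0.45 ± 0.19 for Fgfr3 (adjusted p = 0.560). After scaling Fgf4 passed (-0.91, adjusted p = 0.0214), where 0.661% of all genes did, and without mutant 3 as well Fgf5 also passed (0.77, adjusted p = 0.00245).

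Fgf3 lies beside Fgf4 and Fgf15 on chromosome 7. It had 1.36 ± 0.560 TPM (SD, n = 3) in XX mESC and 0.0344 ± 0.0284 TPM in XX EpiLC, and it fell with Fgf4 in XX (-1.17), XY (-0.71) and Tet3-/- (-0.84). It was the only one of 4 tested other FGF ligand genes that fell, while 13 of the 17 listed did not pass the filter. Of all genes 12.2% fell in XX, 9.36% in XY and 21.5% in Tet3-/-. Fgf3 reached 1 TPM only in mESC libraries, so the filter admitted it through the state in which it was high. Fgf13, which encodes an FGF homologous factor that stays inside the cell, had the largest rise of this list in each transition (0.86 in XX, 1.99 in XY and 1.09 in Tet3-/-). Next to Fgf5, Prdm8 had 0.260 ± 0.0415 TPM in XX EpiLC and 1.48 ± 0.242 TPM in XY EpiLC, and Cfap299 had 0.603 ± 0.0902 and 5.36 ± 1.44 TPM. Both neighbours, like Fgf5, were higher in every XY than in every XX EpiLC library. Of all genes 42% were called lower in XX than in XY EpiLC. Prdm8 and Cfap299 reached 1 TPM in XY EpiLC and in no wild-type XX library, so the filter admitted them through groups in which they were high. Bmp3, also near Fgf5, was at most 0.0703 TPM in EpiLC, and its XX and XY ranges overlapped. At the Fgf4 locus, Ccnd1 had means of 2.82 TPM in XX mESC and 9.47 TPM in XX EpiLC, and 29.1 and 21.2 TPM in XY.

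Genes of feedback and targets, which ERK activity is known to switch on, were for the most part higher in EpiLC. Of the 17 tested of 18, 12 rose and 1 fell in each of the 3 transitions, with a median change of 1.54 in XX, 1.31 in XY and 1.59 in Tet3-/-, against 0.14, 0.54 and -0.13 over all genes. Of all genes 19.2%, 41.1% and 13.6% rose and 12.2%, 9.36% and 21.5% fell. After scaling 13, 11 and 15 of the list rose and 1 fell in each, where 50.4%, 51.4% and 52.4% of all genes changed in either direction. Dusp6, a phosphatase that inactivates ERK, had the largest rise in each: from 0.180 ± 0.0896 to 16.5 ± 0.942 TPM in XX (3.89), from 2.00 ± 1.01 to 38.2 ± 3.77 TPM in XY (3.76) and by 4.45 in Tet3-/-. Etv5, a transcription factor of the ETS family, was the only one that fell (-1.08 in XX, -1.33 in XY and -1.41 in Tet3-/-). In mESC, where MEK is inhibited, 5 of the 17 were lower and 1 was higher in XX than in XY, where 14.2% of all genes differed. Those lower in XX were Dusp6 by -1.29 (adjusted p = 0.0248), Il17rd, a feedback inhibitor also called SEF (-1.85, adjusted p = 0.000790), Spred1 (-1.53), Etv1 (-1.29) and Spry1 (-0.96), and Fos was higher (1.27, adjusted p = 0.0136). Between the XX and XY transitions 4 of the 17 rose more in XX and 1 less, where 16% of all genes differed and 12.4% took the lower direction. Etv4 (3.06), Ier3 (2.31), Dusp5 (1.28) and Spry1 (1.26) rose more in XX and Spred3 (-1.64) less. After scaling 5 rose more and 1 less, where 23.7% of all genes differed. No gene of the 4 lists passed limma's threshold between Tet3-/- and XX cells in either state. Of all genes 0.601% passed in mESC and 1.08% in EpiLC. After scaling 2 of 17 feedback and target genes and 1 of 22 co-receptor or heparan sulfate genes were higher in Tet3-/- EpiLC. There 5.46% of all genes passed in either direction.

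Co-receptors and the enzymes and carriers of heparan sulfate form the next list, with 22 of 24 genes tested. Of these 9 rose and none fell in XX, 15 rose and none fell in XY, and 8 rose and 3 fell in Tet3-/-; the shares of all genes that rose were 19.2%, 41.1% and 13.6%, and those that fell 12.2%, 9.36% and 21.5%. After scaling these counts were 10 and 3, 14 and 4, and 13 and 5, where 50.4%, 51.4% and 52.4% of all genes changed. Its median was a change of 0.24 for XX, 1.19 for XY and 0.34 for Tet3-/-, beside 0.14, 0.54 and -0.13 over all genes. Sulf1, which trims sulfate from heparan sulfate outside the cell, had the largest rise in XX (3.74) and Tet3-/- (3.32), and Gpc1, a cell-surface heparan sulfate proteoglycan, in XY (3.01). Sulf1 had 0.0811 ± 0.0697 TPM in XX mESC and 11.0 ± 4.65 TPM in XY mESC. Fgfrl1, an FGF receptor without the kinase domain, had the largest fall in Tet3-/- (-1.27). Among the 20 genes of signal relay, all tested, 6 rose and 1 fell in XX, 11 rose and none fell in XY, and 3 rose and 2 fell in Tet3-/-, and after scaling 9 and 3, 7 and 5, and 7 and 3, to be read beside the same shares of all genes. Their median change was 0.43, 0.84 and -0.027, beside the same medians of all genes. Shc1, an adaptor, had the largest rise in XX (1.98) and Tet3-/- (1.59). In XY Braf, a RAF kinase, rose by 1.62. Ksr1, a scaffold of the RAF and MEK kinases, fell in XX (-0.57), and Map2k1, which encodes MEK1, had the largest fall in Tet3-/- (-0.89).

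For each tested gene the 3 genes most like it were taken by Pearson's r of log2(TPM + 1) over the 19 libraries, which are not independent of state and line. For Fgf4 these were Trap1a (0.987), Lrrc34 (0.982) and Cd1d1 (0.980). For Fgf5 they included Tmem229a (0.995) and Myrf (0.992), and for Fgf8 they were Foxa2 (0.996), Alox15 (0.993) and Spink1 (0.990). Fgf15 was most like Arnt2 (0.984), Irx5 (0.979) and Loxl2 (0.978), and Fgf17 most like Tmem59l (0.990), Prrx2 (0.988) and Cdk14 (0.985). Among receptors, Fgfr1 was most like Rtl6 (0.989), Rgmb (0.985) and Zfp358 (0.985), and Fgfr2 like Acot2 (0.964), Nuak2 (0.962) and Itgb1 (0.961). For Fgfr3 they were Tmem154 (0.978), Ttc39a (0.972) and Ptpru (0.971). Foxa2 is one of the mesendoderm genes above, high in XY EpiLC and in mutant 3 like Fgf8.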

How the data were processed

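RNA was measured by stranded total RNA sequencing after depletion of ribosomal RNA, per the labels' protocols. The authors deposited 1 table of TPM for 140948 transcripts and 19 libraries. Trimming with Trimmomatic 0.35, quality control with FastQC 0.11.7, quantification with Salmon 1.1.0 and the build GRCm38 are named in the submitters' processing notes. TPM keeps no depth, so no counting interval is given.

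Transcript TPM were summed per gene with GENCODE M21, leaving out 1096 unmatched transcripts (at most 0.215% of TPM). Reads that Salmon shares among near-identical transcripts cannot be checked. Genes with at least 1 TPM in at least 3 libraries (14972) were fitted as log2(TPM + 1) with limma 3.58.1 in R 4.3.3 over 6 groups (eBayes with a trend), Benjamini-Hochberg adjustment over all genes tested, and a threshold of 0.05, in 9 contrasts. The pseudocount of 1 understates the change of genes at low TPM. The fit was tested on simulated data. Sample titles give the Tet3-/- mESC and EpiLC libraries a shared mutant number, which pairs them (r of their deviations from group means 0.271, 0.303 and -0.0202 for mutants 1, 3 and 4), while wild-type numbers only count replicates. Nothing says that libraries of a group came from separate cultures, so p-values measure the spread between these libraries, which may be technical.

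The 9 genes, the 4 pathway lists (feedback and targets, co-receptors and heparan sulfate, signal relay, other FGF ligands), the marker lists and the rules were chosen with earlier results of these data known. In each pathway list and transition the called genes with the largest rise and the largest fall are named; other list genes, neighbours and markers are named as examples. Some genes and sequences these rules would name are not reported here. Alternatives were pseudocount, filters, scaling, quantile normalization, rescaling over protein-coding genes, a replicate block, leaving out each library, eBayes with no trend and separate fits of the compared groups. One alternative, scaling without EpiLC mutant 3, was added after seeing the data, as were the within-library shares and the complete coding sums.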

Additional observations from a re-analysis of the deposited data

Results flagged for a closer look

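The difference of the XX and XY transitions passed limma's threshold for 5 genes, with values on the log2(TPM + 1) scale of -3.90 for Fgf5, -4.04 for Fgf8, -1.46 for Fgf15, -1.56 for Fgfr1 and -1.41 for Fgfr2. In 2 of the 9 groups of 4 Tet3-/- mESC libraries, 1 per gene, one library lay far from the others; chance flags about 1 in 20 such groups. These were Fgf8 in mutant 1 at 0.0190 TPM, the others being listed at 0, and Fgfr3 in mutant 4 at 0.219 TPM. Both levels are far below 1 TPM, and that rate need not hold for Fgf8, where the other libraries were at 0.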

How the results depend on the processing

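None of the 32 called results of single genes changed direction: of their 516 values under alternatives, 489 kept the call and 27 lost it. Calls lost were those of Fgf5 in XX (adjusted p = 0.0536 with no filter and 0.051 without XX EpiLC 3), of Fgf8 in Tet3-/- (0.0938 with no filter, 0.178 with only the groups compared and 0.0524 to 0.056 without any one Tet3-/- mESC library), of Fgf4 between Tet3-/- and XX EpiLC, and of Fgfr1 between the XX and XY transitions (0.0589 with pseudocount 0.1, 0.0917 with no filter).

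The count of FGF genes called in the XY transition was 5 with a filter of 5 TPM, which left fewer genes tested. In the XX transition it was 7 with only the groups compared, where Fgf8 passed too, and 5 with no filter. Between Tet3-/- and XX EpiLC it was 3 with scaling, 3 with quantile normalization, 2 over protein-coding genes, 0 with no filter, 0 with only the groups compared, 4 with scaling and without mutant 3, and 0 to 2 with 1 library left out. Between XX and XY EpiLC it was 8 with scaling, quantile normalization or protein-coding genes, and between the XX and XY transitions 8 with quantile normalization. Between the Tet3-/- and XX transitions it was 1 with each of these 3 scalings and 2 with scaling and without mutant 3. Causes were not tested.

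Differences that changed sign were uncalled. With 1 library left out, Fgf15 in the Tet3-/- transition ranged from -0.013 (without mutant 3) to 0.54, Fgfr2 between XX and XY EpiLC from -0.10 to 0.14, Fgfr3 between the XX and XY transitions from -0.068 to 0.14, and Fgfr1 between the Tet3-/- and XX transitions from -0.74 (without mutant 3) to 0.084 (without mutant 4). With pseudocount 0.1, Fgfr3 was -0.43 between the XX and XY transitions. Fgfr1 between the Tet3-/- and XX transitions was 0.075 with scaling and 0.032 with quantile normalization.

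With the replicate block, which in the transitions also keeps the 2 states of a Tet3-/- mutant together, 7 FGF genes were called in the Tet3-/- transition as without it. Between Tet3-/- and XX EpiLC, whose numbers the titles do not tie to each other, 0 were called (Fgf4 adjusted p = 0.0611), and no other call changed. Same-numbered wild-type mESC and EpiLC libraries deviated together with r from -0.0488 to 0.243.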
